A study of Mus musculus with 7 samples.

Results

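The wide shared peaks of Nfatc1 are the regions that gave a CUT&Tag peak of at least 2 kb in R406-treated mouse fibroblasts and met a peak of the DMSO-treated cells at 1 bp or more. CUT&Tag cuts and tags DNA next to a bound antibody. The peak lists held 36799 peaks for R406 and 21157 for DMSO on chromosomes 1 to 19 and X, and 495 R406 peaks met the rule. They were 1.35% of the R406 peaks and 3.25% of the 15209 R406 peaks that met a DMSO peak. A further 19 R406 peaks of at least 2 kb met no DMSO peak. Both CUT&Tag libraries came from embryonic fibroblasts of OG2 mice, strain CBA-Tg(Pou5f1-EGFP)2Mnn/J, taken at embryonic day 13.5. The cells had received lentiviruses carrying rtTA and TetO-Flag-Nfatc1, so that doxycycline switched on an introduced, FLAG-tagged Nfatc1, and they were kept in Stage 1 reprogramming medium with doxycycline and either DMSO or R406 for 4 days. The antibody was against FLAG, and each condition had 1 library, so no peak value has a replicate check. RNA-seq came from 2 libraries given DMSO and 2 given R406, in fibroblasts of the same strain and age in Stage 1 medium under a 12-day protocol. The labels do not say that the RNA cells carried the introduced Nfatc1, nor that each library was its own culture. The p-values therefore reflect only how far these libraries scatter, possibly for technical reasons. The day of RNA harvest and the R406 dose were not given in the sources used here, and a library made without primary antibody was not analysed here.

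Nfatc1 belongs to the NFAT family of transcription factors, which wait in the cytoplasm in phosphorylated form. Calcium activates the phosphatase calcineurin, which strips these phosphates, and NFAT then enters the nucleus and binds the core letters GGAAA, often beside an AP-1 factor such as Jun. R406, the active form of fostamatinib, inhibits the kinase Syk, which lies upstream of calcium release in many immune cells. Rcan1, which binds and restrains calcineurin, is a known NFAT target and a feedback brake of the pathway.

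Wide peaks covered, among others, the promoters of the calcineurin brake Rcan1 and of the mesenchymal factor Twist1. Most promoters below were chosen because they belong to NFAT, AP-1 and mesenchymal regulators, to the highest promoter folds, to the steepest R406 rise at a coding start or to a microRNA host. Id2, at one of the widest peaks, is shown as well. Each is the 250 bases before a gene start, from RefSeq on GRCm38.p6, the assembly also called mm10, and each lies wholly inside a wide peak. On either strand, capitals mark the NFAT core GGAAA, the AP-1 site spelled TGANTCA and the cAMP response element, spelled TGACGTCA.
Rcan1: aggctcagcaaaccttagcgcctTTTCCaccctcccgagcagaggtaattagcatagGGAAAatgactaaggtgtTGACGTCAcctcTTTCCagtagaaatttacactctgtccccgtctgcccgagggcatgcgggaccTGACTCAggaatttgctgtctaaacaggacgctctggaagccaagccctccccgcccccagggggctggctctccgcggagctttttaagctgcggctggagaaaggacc
Nfatc4: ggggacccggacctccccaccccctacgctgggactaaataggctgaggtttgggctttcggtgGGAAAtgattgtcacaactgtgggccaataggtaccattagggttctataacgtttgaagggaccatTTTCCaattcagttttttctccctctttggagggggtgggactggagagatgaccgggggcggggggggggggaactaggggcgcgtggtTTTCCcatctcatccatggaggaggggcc
Jun: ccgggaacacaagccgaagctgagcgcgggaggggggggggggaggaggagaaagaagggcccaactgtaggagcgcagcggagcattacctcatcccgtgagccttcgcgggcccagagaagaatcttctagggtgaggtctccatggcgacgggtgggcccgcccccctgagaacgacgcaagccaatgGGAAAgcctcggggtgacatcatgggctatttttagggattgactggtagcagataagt
Twist1: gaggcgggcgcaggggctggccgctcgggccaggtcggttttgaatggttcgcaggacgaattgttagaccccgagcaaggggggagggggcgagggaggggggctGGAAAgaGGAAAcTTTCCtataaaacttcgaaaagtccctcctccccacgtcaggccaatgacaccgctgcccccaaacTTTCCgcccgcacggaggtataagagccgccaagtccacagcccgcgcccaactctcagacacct
Hic1: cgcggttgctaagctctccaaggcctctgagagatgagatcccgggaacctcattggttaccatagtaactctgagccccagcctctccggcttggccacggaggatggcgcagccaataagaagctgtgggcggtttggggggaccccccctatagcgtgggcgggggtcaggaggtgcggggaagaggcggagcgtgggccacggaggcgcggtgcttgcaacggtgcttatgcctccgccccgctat
Id2: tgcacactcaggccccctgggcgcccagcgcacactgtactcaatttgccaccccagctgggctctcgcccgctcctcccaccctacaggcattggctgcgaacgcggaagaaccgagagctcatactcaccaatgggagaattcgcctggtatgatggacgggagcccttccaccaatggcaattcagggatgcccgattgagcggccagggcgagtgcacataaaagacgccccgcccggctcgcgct
Rheb: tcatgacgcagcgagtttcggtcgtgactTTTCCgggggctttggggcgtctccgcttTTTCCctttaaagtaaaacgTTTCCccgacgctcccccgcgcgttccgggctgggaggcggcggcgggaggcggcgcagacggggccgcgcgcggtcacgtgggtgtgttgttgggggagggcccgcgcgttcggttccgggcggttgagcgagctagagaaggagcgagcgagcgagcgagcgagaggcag
Nr6a1: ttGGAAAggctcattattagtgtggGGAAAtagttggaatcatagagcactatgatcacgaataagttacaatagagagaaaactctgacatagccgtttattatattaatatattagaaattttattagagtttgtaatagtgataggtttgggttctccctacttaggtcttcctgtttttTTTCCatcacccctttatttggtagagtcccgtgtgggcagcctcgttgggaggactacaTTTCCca
Mir22hg: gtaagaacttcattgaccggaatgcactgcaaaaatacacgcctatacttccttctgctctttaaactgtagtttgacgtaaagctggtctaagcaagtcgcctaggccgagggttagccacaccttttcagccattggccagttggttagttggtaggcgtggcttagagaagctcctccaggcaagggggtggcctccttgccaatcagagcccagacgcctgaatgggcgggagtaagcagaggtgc
The Rcan1 stretch lies at chr16:92400079-92400328 on the minus strand and the Rheb stretch at chr5:24842362-24842611 on the minus strand. Twist1 is shown at chr12:33957421-33957670 on the plus strand, Jun at chr4:95052223-95052472 on the minus strand and Id2 at chr12:25096093-25096342 on the minus strand. Nfatc4 is shown at chr14:55824545-55824794 on the plus strand, Hic1 at chr11:75170256-75170505 on the minus strand, Mir22hg at chr11:75461289-75461538 on the plus strand and Nr6a1 at chr2:38926462-38926711 on the minus strand. The Rcan1 promoter held 3 GGAAA cores, 2 of them as TGGAAA, with 1 AP-1 match and 1 cAMP response element. Twist1 and Nr6a1 held 4 GGAAA cores each, Rheb and Nfatc4 3 each, and Jun 1. Id2, Hic1 and Mir22hg held none of the 3 motifs in this window.

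GGAAA was no more frequent in these promoters than elsewhere. Of 206 promoters (180 genes) inside wide peaks, 53.9% held GGAAA on either strand, against 56.6% of 2993 promoters inside other shared peaks and 55.8% of all 32619 promoters of the table. TGGAAA, which contains the GGAAA core, stood at 18.5%, 16.3% and 18.7% in the same order, and TGANTCA at 5.83%, 4.48% and 6.78%. The cAMP response element TGACGTCA was found in 5.83%, 3.17% and 1.56%, that is in 12 promoters inside wide peaks, among them those of Rcan1, Btg2, Dusp1 and Ppm1d. The GC box GGGCGG was found in 62.1%, 65.3% and 33.0%, and the median number of CG pairs per promoter was 17, 18 and 6. Promoters inside wide peaks were thus as rich in CG pairs as those inside other shared peaks, and richer than the table as a whole. Base composition was not matched in these shares, and a match of letters is a description, not a bound site. The sequence under peaks outside promoters was not analysed here.

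MicroRNA genes near wide peaks include a pair with the same mature sequence. Of 1228 microRNA genes in the gene table, 7 had their start within 1 kb of a wide peak. Mature sequences from RefSeq follow, with the seed (bases 2 to 8) in capitals, for those whose families are best known in fibroblasts, and for Mir21a, the microRNA next to the widest peak.
miR-199a-3p: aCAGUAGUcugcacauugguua
miR-199b-3p: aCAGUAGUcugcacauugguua
let-7i-5p: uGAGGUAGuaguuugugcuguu
miR-22-3p: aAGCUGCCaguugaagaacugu
miR-21a-5p: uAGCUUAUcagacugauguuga
Mir199b on chromosome 2 and Mir199a-1 on chromosome 9 share the seed CAGUAGU, and a script found their 3p products identical. The Mir199b peak, chr2:32317036-32319928, had a fold of 21.5 in R406 and 12.4 in DMSO, and the Mir199a-1 peak, chr9:21495890-21498133, had 32.9 and 11.7. The start of Mirlet7i, a member of the let-7 family, lay 144 bp from the edge of a wide peak with folds of 27.2 and 18.2. The start of Mir22 lay 322 bp from the edge of the wide peak over its host gene Mir22hg, which had folds of 51.2 and 11.7. Mature microRNA was not measured in these libraries.

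In these lists, fold is the authors' enrichment at a peak's summit, the point of highest read coverage. The fold of a member in DMSO is the highest among the DMSO peaks it met, and its DMSO span runs from the first to the last base of those peaks, gaps included. Members were chosen by their R406 width and their overlap with a DMSO peak, so width is described without a test, as is fold, which belongs to the same peaks. Members were 2003 to 7259 bp wide in R406 with a median of 2329 bp, and 307 of them were under 2.5 kb while 18 reached 4 kb. Their DMSO span had a median of 1819 bp, and 195 spans also reached 2 kb while 67 were under 1 kb. A single DMSO peak lay under 325 members, 2 peaks under 157, and 3 or 4 under 13. The width ratio depended on the library that entered the rule. When the 181 DMSO peaks of at least 2 kb were taken instead, the median ratio of R406 to DMSO width was 0.999 in place of 1.31.

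Folds were high in both libraries and higher with R406 at most members. The median fold of members was 32.9 in R406 and 18.9 in DMSO, against 13.9 and 9.47 at the 14714 other shared peaks. The fold was higher in R406 at 449 of 495 members (90.7%), and the median R406 to DMSO ratio was 1.70, with a range of 0.315 to 5.40 (from 0.521 without the 31 members whose R406 fold was set against a raised local background, described below). The other shared peaks had a ratio of 1.39, and 76.5% of them were higher in R406. The 2 lists do not share a scale. The folds stepped by 0.729 in DMSO and 0.633 in R406 for each added read of coverage, which sets the background coverage at 0.373 and 0.581, so that equal high enrichment over background would give a fold ratio of 1.35. Coverage per background, which removes this offset, had a median R406 to DMSO ratio of 1.31 at the 463 members where it could be computed and was higher in R406 at 363 of them (78.4%). At other shared peaks the same ratio was 1.07, and 54.8% were higher in R406. Members were picked by their R406 width, so the rule itself can raise both ratios above those of other shared peaks. This gap is therefore a description and was not tested. When the DMSO width entered the rule, the median fold ratio was lower, as given under the dependence on processing. Across members, Spearman's rho between the fold in R406 and in DMSO was 0.767 over 495 peaks. Between R406 width and R406 fold it was 0.158, so the widest members were not the highest.

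**Figure D1:**
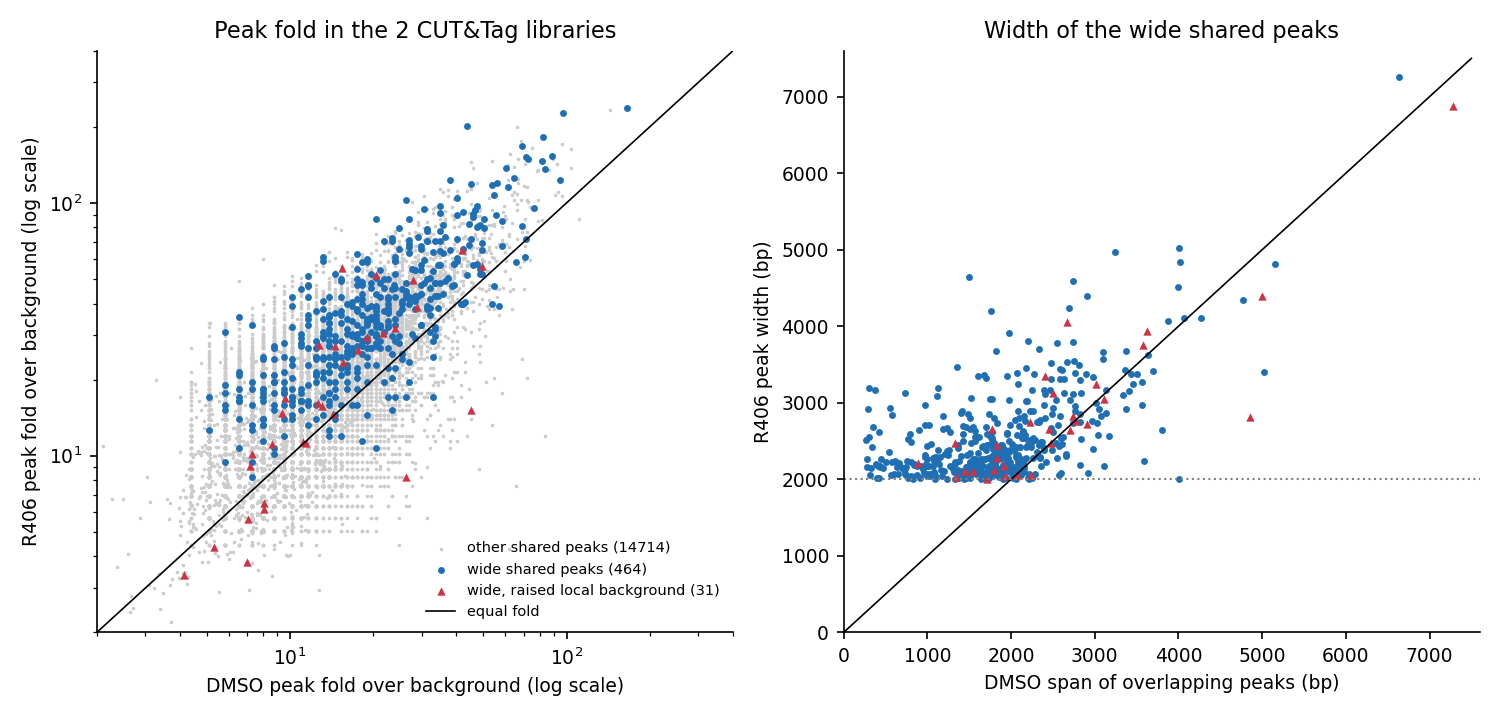
Left, fold over background of each shared peak in DMSO (x axis) and R406 (y axis), both on log scales, for 14714 other shared peaks (grey), 464 wide shared peaks (blue) and 31 wide shared peaks with a raised local background (red triangles), with the line of equal fold. Right, R406 width of the wide shared peaks against the span of the DMSO peaks they met, in bp, where the dotted line is the 2000 bp limit. Most points lie above equality in both panels, and Rcan1 is the highest blue point at 237 and 166.

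Rcan1 had the highest fold of all members, 237 in R406 and 166 in DMSO. Its wide peak, chr16:92397785-92401853, was 4069 bp in R406 and 3871 bp in DMSO, and the summits lay 282 and 238 bases before the internal start of the gene. Coverage per background differed by a ratio of 1.06 between the libraries there. A second wide peak in Rcan1 had folds of 115 and 61.2, and another had 39.8 and 25.5, both upstream of the internal start and inside the longer gene model. Of 24 R406 peaks from 80 kb before to 30 kb after that start, these 3 met the rule. Another, of 2243 bp with a fold of 9.49, met no DMSO peak. Nfatc1 itself had 1 wide peak inside the gene, with folds of 67.0 and 27.0.

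Nfatc4, another NFAT family member, had a wide peak with folds of 55.0 in R406 and 48.8 in DMSO, its summit about 2 kb before the start. Nr4a3, an orphan nuclear receptor induced by calcium, had 34.2 and 20.4, and Egr3, an early growth response factor, had 16.4 and 10.9. With Rcan1 these made 4 of the 20 genes of a list of NFAT and calcineurin feedback genes, while 8 others had their start at a narrower shared peak.

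**Figure D2:**
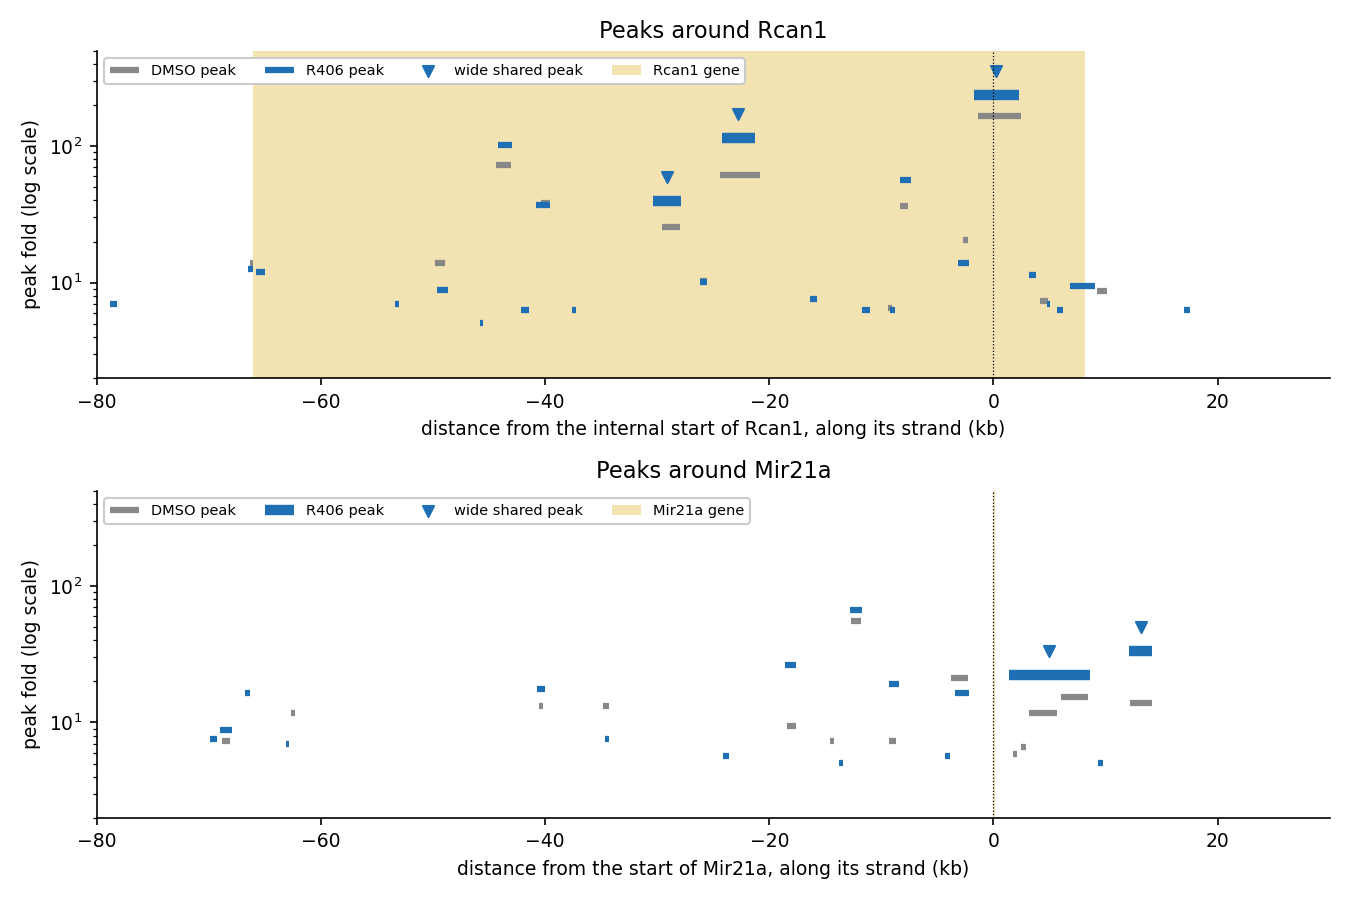
Peaks of the R406 (blue) and DMSO (grey) libraries around Rcan1 (top) and Mir21a (bottom), as bars drawn to their length along the gene's strand in kb from the start, at the height of their fold on a log scale; triangles mark wide shared peaks and the shaded band is the gene. The 3 wide peaks of Rcan1 lie at folds of 237, 115 and 39.8, and the widest member lies after Mir21a at a fold of 22.1.

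The widest member, 7259 bp at chr11:86575541-86582799, lay between genes, after Mir21a, which encodes a microRNA abundant in activated fibroblasts. It had a modest fold of 22.1 in R406 and 15.3 in DMSO, and 4 DMSO peaks with gaps between them spanned 6639 bp. Trib1, a pseudokinase that steers protein breakdown, had the next widest peak at a named start, 5023 bp with folds of 89.8 and 40.1. Id2, an inhibitor of helix-loop-helix factors, followed at 4971 bp with 31.6 and 13.8. Among the 12 widest members, others lay in Ralgps1 and Septin9 and near the starts of Tnrc18, Fscn1, Hivep2 and Col27a1. The rest were the second widest of all, 6879 bp in the run on chromosome 9 described below, 1 of 4589 bp at the predicted gene Gm32700, and 1 of 4393 bp near the start of the chromosome 4 assembly. Fscn1, an actin-bundling protein, showed the largest gap in width among these, 4642 bp in R406 against a span of 1495 bp in DMSO. Its folds were 15.8 and 13.8, and its coverage per background had an R406 to DMSO ratio of 0.855.

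Rheb, the GTPase that activates mTOR, had the second highest fold, 228 in R406 and 96.9 in DMSO. The next, 202 and 43.7, lay between genes about 20 kb from the start of Otogl, and the one after it, 182 and 82.3, lay near Tpt1. Vps13d, Trpm3 and Ttc28 held members with R406 folds of 168, 154 and 152 in their bodies, and a member 1903 bp before the gene Cd9 had 149 in R406 and 72.9 in DMSO.

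The steepest rise with R406 lay far from any named start, at chr16:86704943-86707053, with a fold of 35.4 in R406 and 6.56 in DMSO, a ratio of 5.40. Rnu1a1, a gene of the U1 small nuclear RNA, followed with 31.0 and 5.83. The member in Capzb, an actin-capping subunit, had 32.9 and 7.29, and the start of the nuclear receptor Nr6a1 had 58.8 and 13.1. In the other direction, the lowest ratios were those of members with a raised local background, 0.315 at Gm19705 on chromosome 1 (8.27 in R406 and 26.3 in DMSO) and 0.337 between genes near the start of the chromosome 4 assembly. Without such members the lowest was 0.521, at the transfer RNA gene n-TSgct1, with folds of 17.1 and 32.8.

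Members with an unusual background are given apart. In 31 members the R406 fold was not a whole number of coverage steps over the fixed background, meaning that a higher local background had been used. Among them, 8 combined a fold under 10 (3.37 to 9.10) with a −log10 p-value of 65.2 to 5430. These 8 included 5 members in one run at chr9:3000003-3036292, at the start of the assembled chromosome, and 1 member beside the ribosomal RNA gene Rn18s-rs5. Their median R406 to DMSO fold ratio was 0.802. Without all 31, the median fold ratio of the remaining 464 members was 1.74.

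The limit of 2 kb has no gap in the data around it. Just inside were members of 2003 bp near Tmem108 with folds of 25.3 and 16.03, of 2004 bp with 32.3 and 33.5, and of 2007 bp near Lrrc18 with 32.9 and 17.5. Just outside were shared peaks of 1998 bp near Notch1 with 17.7 and 10.9, of 1999 bp near Colec12 with 17.7 and 8.74, and of 1999 bp with 26.6 and 22.6.

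Wide peaks reached gene starts in 214 of 495 cases (43.2%, 95% Wilson interval 38.9 to 47.6, for counting error only), counting a start within 1 kb of the peak (either end of the gene where the strand of its start was not known). A further 157 (31.7%) lay in gene bodies and 124 (25.1%) between genes. At other shared peaks these shares were 32.2%, 39.3% and 28.5%. A longer peak reaches more starts, so the share was also taken from the summit, where 33.1% of members (29.1 to 37.4) and 30.03% of other shared peaks (29.3 to 30.8) lay within 1 kb of a start, and these intervals overlap. Where the start had a known strand, the summit lay before the start at 82 of 126 such members (65.1%, 56.4 to 72.8) and at 49.7% of such other shared peaks (48.1 to 51.4). Members also lay in denser surroundings, with a median of 5 other R406 peaks within 50 kb against 3.

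**Figure D3:**
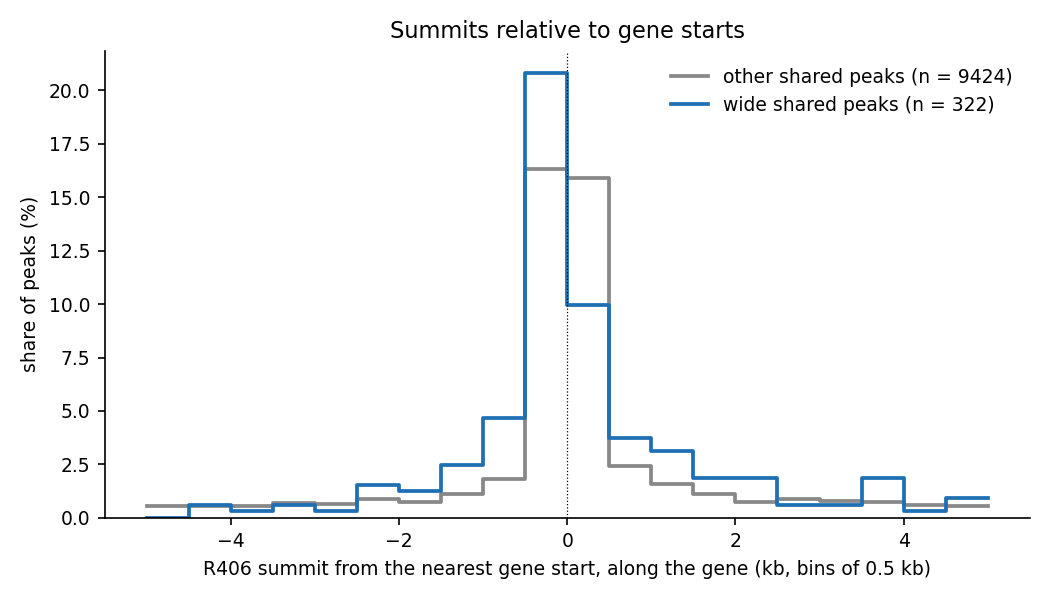
Share of peaks (%, y axis) by the distance of the R406 summit from the nearest gene start, along the gene, in bins of 0.5 kb (x axis), for 322 wide (blue) and 9424 other shared peaks (grey) whose nearest start has a known strand. In the bin before the start the shares are 20.8% and 16.3%, and in the bin after it 9.94% and 15.9%.

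Linked at the gap commonly used to join enhancer peaks, 44 members (8.89%) formed 20 clusters, of which 18 were pairs. Apart from the run on chromosome 9, the one cluster above a pair was 3 members in Vps13d on chromosome 4, with R406 folds of 168, 48.1 and 36.1. R406 folds are given in brackets for the pairs that follow. Pairs lay in Ror2, a receptor of Wnt5a (30.4 and 119), at both ends of Adamts1, a matrix protease (22.8 and 50.0), and at the start of Pdgfra, a growth factor receptor of fibroblasts (16.4 and 27.8). Further pairs lay before Ptn (32.9 and 65.1), between Malat1 and Neat1, the long nuclear RNAs (25.9 and 34.2), and in Kdm6b, a histone demethylase (27.2 and 49.4), where both had a raised local background. The Klf13 pair split in direction, with 19.6 in R406 and 27.0 in DMSO at the start, and 33.5 and 18.9 inside the gene.

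Transfer RNA genes had a larger share of their starts at wide peaks than coding genes. Of 408 transfer RNA genes in the table, 31 (7.60%) had their start at a wide peak, against 0.915% of protein-coding genes and 0.567% of long non-coding RNA genes. These starts fell on 11 members (2.22%), while 0.523% of other shared peaks met a transfer RNA gene. Other shared peaks also met more of them, with starts of a further 28.4% of transfer RNA genes against 20.2% of protein-coding genes. Transfer RNA genes lie in arrays, so 1 wide peak can meet several. Replication-dependent histone genes, another arrayed group, had 13 of 64 starts (20.3%) at only 5 wide peaks, with R406 folds of 24.0 to 27.8. A further 25 of the 64 (39.1%) had their start at other shared peaks. Both groups were picked out after their peaks were seen.

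In all, 321 genes had their start at a wide peak, of which 198 were protein-coding. The RNA table listed 244 of them, and 195 passed the filter of a mean of 1 TPM (transcript share of a fixed total, which keeps no read depth). Their median TPM was 17.5, against 15.97 for genes at other shared peaks and 11.01 for all 13929 genes tested. Fibroblast markers were abundant in all 4 libraries, with summed TPM of 5314 and 4206 in DMSO and 6143 and 4431 in R406. Of 15 tested in the limma fit below, 2 were called higher in R406 (Col3a1 and Postn) and 3 lower (S100a4, Fap and Fbn1). The same fit called 4.26% of all genes tested higher and 4.05% lower. Markers of macrophages summed to 293 and 246 in DMSO and to 21.9 and 23.7 in R406, where 10 of 11 tested were lower. Markers of endoderm and epithelium summed to 300 and 252 in DMSO and to 1207 and 700 in R406, where 12 of 18 were higher. Neither the macrophage nor the endoderm and epithelium list had a start at a wide peak. The part of these markers in the RNA differences below was not tested. In such bulk samples fewer cells of a type and less RNA per cell cannot be told apart.

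Of the 195 genes, 9 were lower and 2 higher in R406. By limma on log2(TPM + 1) with Benjamini-Hochberg adjustment over all genes, 4.62% of the genes at wide peaks were lower and 1.03% higher at an adjusted p of 0.05, against 4.05% and 4.26% of all genes tested (8.31% in either direction). Unadjusted, 26.2% had a p under 0.05, against 26.8% of all genes. The groups did not overlap for 93 genes (47.7%), against 56.1%. The median log2 difference, R406 minus DMSO, was −0.08 at wide peaks, −0.06 at other shared peaks and −0.02 over all genes. Without DMSO replicate 1 only S100a4 of the 11 remained, with 0 higher calls (6 genes with a higher value at an unadjusted limma p under 0.05), while without DMSO replicate 2 the number that remained was 5. The median difference turned to 0.02 without DMSO replicate 1 and to 0.05 without R406 replicate 2.

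S100a4, a calcium-binding protein of motile fibroblasts and of macrophages, stood at 273 and 249 TPM in DMSO and at 48.5 and 64.7 in R406. The groups were far apart, with a log2 difference of −2.20 ± 0.22 (SE, limma adjusted p = 0.0165). Its wide peak had folds of 22.1 in R406 and 17.5 in DMSO. Lgals1, a secreted galectin, was the most abundant gene with a start at a wide peak, at 11713 and 8993 TPM in DMSO and 3975 and 3112 in R406, and it fell by 1.54 on the log2 scale (adjusted p = 0.0336). The fold of its peak was 40.1 in DMSO and 104 in R406. A higher R406 fold was the rule, found at 90.7% of members, and the 2 lists do not share a scale. Fap, a surface protease of activated fibroblasts, stood at 8.95 and 7.65 TPM in DMSO and 3.21 and 2.62 in R406 (log2 difference −1.25, limma adjusted p = 0.0331). Its peak had folds of 42.3 in DMSO and 65.8 in R406.

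The other 6 genes that fell were Dusp4, Efna5, Wnt16, Mex3b, Septin11 and Elk3. Dusp4, a phosphatase that turns off ERK, stood at 14.2 and 8.67 TPM in DMSO and 2.38 and 1.69 in R406, so its DMSO libraries differed from each other more than those of the other called genes (log2 difference −2.01 ± 0.29, adjusted p = 0.0277). Efna5, a ligand of Eph receptors, stood at 16.4 and 17.0 against 4.29 and 4.26, with little spread in either group (−1.75, adjusted p = 0.0165). Wnt16, a secreted Wnt ligand, stood at 15.5 and 12.9 against 3.16 and 4.19 (−1.71, adjusted p = 0.0215). The peaks of Dusp4 and Wnt16 were weak for members, with R406 folds of 8.22 and 9.49 and a DMSO fold of 7.29 for both, while that of Efna5 had 43.0 in R406 and 29.1 in DMSO. Mex3b, an RNA-binding protein, fell by 1.12 on the log2 scale, Septin11, a filament protein, by 1.02, and Elk3, an ETS factor, by 0.98. All 3 had groups that did not overlap, and R406 folds of 56.9, 24.7 and 48.1 against DMSO folds of 29.9, 13.1 and 30.6.

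The genes that rose were Cdca3 and Cdca2. Cdca3, a cell division cycle associated protein, stood at 2.41 and 3.08 TPM in DMSO and at 14.0 and 9.77 in R406, a log2 difference of 1.77 ± 0.25 (limma adjusted p = 0.0261). Cdca2, which targets a phosphatase to chromosomes, stood at 0.451 and 0.452 in DMSO and at 2.49 and 2.79 in R406 (1.33, adjusted p = 0.0253), so it was under 1 TPM in DMSO and passed the filter on low values only through its R406 level. Their wide peaks were among the strongest, with R406 folds of 123 for Cdca3 and 147 for Cdca2 and DMSO folds of 37.9 and 81.6.

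**Figure D4:**
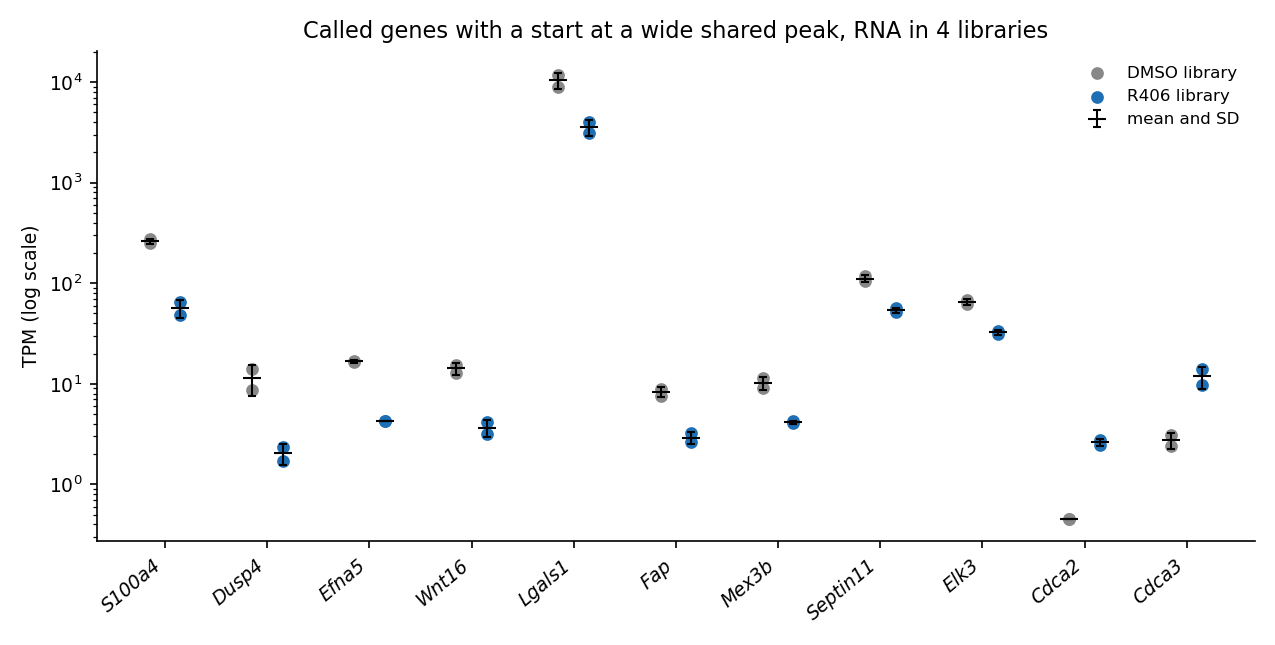
TPM on a log scale (y axis) of the 11 called genes whose start lies at a wide shared peak, in the 2 DMSO (grey) and 2 R406 (blue) libraries, with mean and SD. The groups do not overlap for any of the 11; S100a4 falls from 273 and 249 to 48.5 and 64.7, and Cdca3 rises from 2.41 and 3.08 to 14.0 and 9.77.

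NFAT family and feedback genes with a wide start did not pass the test. Rcan1 stood at 160 and 128 TPM in DMSO and at 159 and 128 in R406, values that pair by replicate number and leave a log2 difference of −0.0050 ± 0.22 (limma adjusted p = 0.992). That gene thus had the highest peak of all members and the same mean RNA in both groups, 144 ± 22.8 TPM in DMSO and 144 ± 22.2 in R406 (SD, n = 2). The TPM is 1 value for the whole gene, so RNA from the internal start was not measured apart. Nfatc4 stood at 30.8 and 20.7 in DMSO and 25.9 and 26.5 in R406, and Nr4a3 at 1.31 and 1.49 against 1.94 and 2.07. The 3 tested genes had limma adjusted p-values of 0.335 to 0.992, and an unadjusted p under 0.05 in 0 of 3. Over the whole list of 20, 0 of 17 tested genes were called, against 8.31% of all genes tested. An unadjusted limma p under 0.05 was found for 7 of the 17, against 26.8% of all genes. With so few genes, these counts only describe the list. Nfatc1 RNA stood at 2.41 and 2.98 TPM in DMSO and 7.36 and 5.45 in R406 (log2 difference 0.99, adjusted p = 0.0659). Syk RNA was low in all 4 libraries, at 0.958 and 1.23 against 1.74 and 1.02 TPM.

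AP-1 and immediate early genes, the quick responders to growth signals, had 2 of 15 and 7 of 30 starts at wide peaks. Jun, the AP-1 partner of NFAT, had folds of 30.4 in R406 and 16.8 in DMSO and RNA of 51.0 and 37.3 TPM in DMSO and 48.5 and 31.4 in R406. Dusp1, a MAP kinase phosphatase, had folds of 62.6 and 17.5 and RNA of 68.4 and 44.4 against 54.2 and 39.2 TPM. Btg2, an antiproliferative factor, had folds of 81.6 and 35.7 and RNA of 38.4 and 40.9 against 57.1 and 51.5 TPM, with groups that did not overlap but a limma adjusted p of 0.202. Of the 7 immediate early genes at wide peaks only Dusp4 passed. Of the 29 tested in the whole list 1 was called higher and 2 lower, against 4.26% and 4.05% of all genes tested.

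Mesenchymal regulators had 3 of 40 starts at wide peaks, and 6 more genes had a wide peak in their body. Twist1, a helix-loop-helix factor of mesenchyme, had folds of 65.8 and 29.9, with summits 49 and 88 bases before its start. Its RNA stood at 1484 and 914 TPM in DMSO and 1438 and 863 in R406, so replicates differed more than conditions. Prrx1, a homeobox factor of limb and skin mesenchyme, had weaker folds of 12.7 and 7.29, and RNA of 95.6 and 120 against 53.7 and 60.4 TPM (log2 difference −0.90, limma adjusted p = 0.0668). Among the 6 body genes, those that passed were the bone regulator Runx2, at 6.14 and 4.87 TPM in DMSO and 1.28 and 0.962 in R406 (−1.61, limma adjusted p = 0.0223), and the chromatin protein Hmga2, at 23.2 and 26.2 against 7.91 and 8.12 (−1.51, adjusted p = 0.0193). Of the 34 tested in the whole list 2 were called higher (Osr1 and Osr2) and 3 lower. The shares over all genes tested were 4.26% and 4.05%, so with so few genes these counts only describe the list.

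Matrix genes had 6 of 40 starts at wide peaks: Col5a1, Thbs1, Tnc, Vcan, Mmp14 and Adamts1. Tnc, a matrix glycoprotein of remodelling tissue, stood at 129 and 103 TPM in DMSO and 64.1 and 44.1 in R406 (log2 difference −1.10, limma adjusted p = 0.0705), and its folds were 19.6 in R406 and 18.9 in DMSO. Mmp14, a membrane-bound matrix protease, stood at 615 and 405 against 290 and 152 TPM (−1.25, adjusted p = 0.126). Thbs1 and Vcan also had lower values in both R406 libraries. None of the 6 passed the limma test, and 4 had an unadjusted limma p under 0.05, all of them lower. In the whole list 23 of 39 tested genes had such a p, 14 of them lower and 9 higher, against 26.8% of all genes. The median log2 difference was −0.72 for the 6 and −0.22 for the 39, a difference that was not tested. In a list of genes for the actin cytoskeleton and contraction, 3 of 34 had their start at a wide peak: Lmna, Vim and Cav1. The actin genes Acta2, Actb and Actg1 of that list did not. None of the 3 had an unadjusted limma p under 0.05. Of the 34 listed genes, 11 were called lower in R406, against 4.05% of all genes tested. Starts of YAP and TEAD targets, macrophage, endoderm and epithelium, and pluripotency genes were met by wide peaks in 0 of 20, 15, 20 and 15 cases, and by other shared peaks in 8, 1, 0 and 4.

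**Figure D5:**
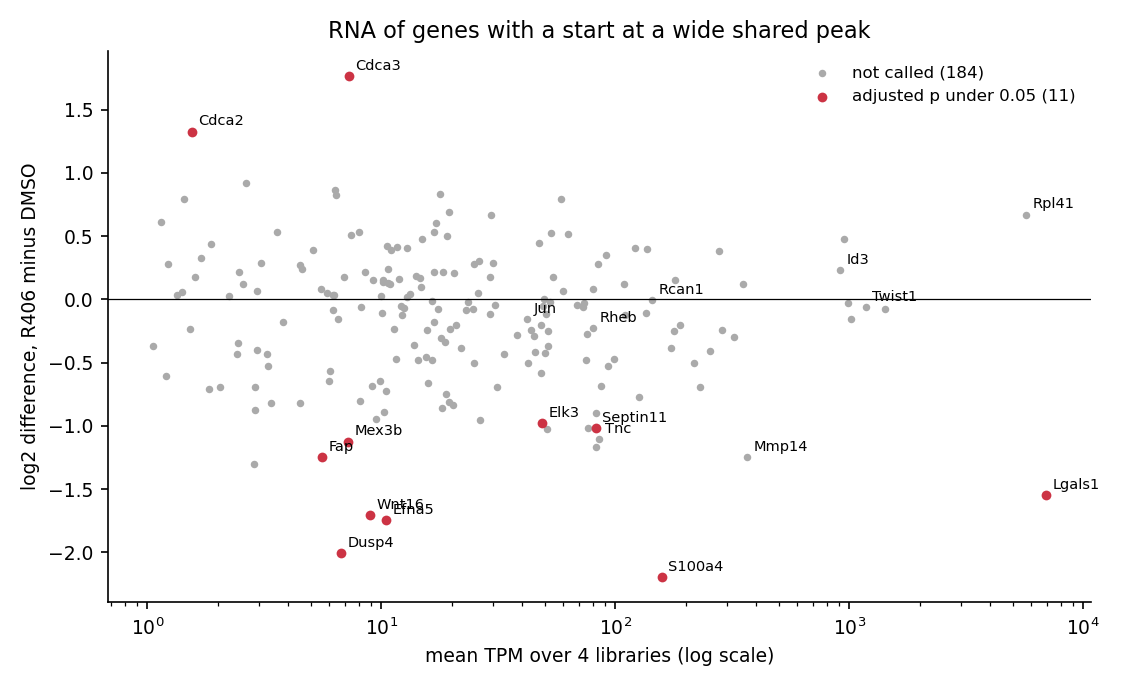
Log2 difference in RNA, R406 minus DMSO (y axis), against mean TPM on a log scale (x axis) for the tested genes whose start lies at a wide shared peak, with the 11 called genes in red. S100a4 and Dusp4 lie lowest at −2.20 and −2.01, Cdca3 and Cdca2 highest, and Rcan1 and Twist1 near 0.

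Counting genes with a wide peak in the body as well as at the start, 18 of 302 tested genes were lower (5.96%) and 5 higher (1.66%), against the same 4.05% and 4.26% of all genes. Fhl2, a LIM protein of contractile cells, held one of the stronger peaks, 84.8 in R406 and 58.3 in DMSO, and its RNA fell from 83.6 and 66.5 TPM to 26.3 and 25.996 (log2 difference −1.48, limma adjusted p = 0.0240). The 3 body genes that rose were Gna14, a G protein subunit (8.98 and 7.82 TPM to 41.0 and 36.3, adjusted p = 0.0149), Slc44a3 (1.91 and 2.06 to 8.14 and 8.91, adjusted p = 0.0183) and Rerg, a Ras-like growth inhibitor (0.950 and 1.43 to 5.35 and 4.81, adjusted p = 0.0264). Of genes that were the nearest named start to a wide peak, the tetraspanin Cd9 stood at 259 and 267 TPM in DMSO and 959 and 988 in R406 (log2 difference 1.89, adjusted p = 0.0151). Ptn, the growth factor pleiotrophin, stood at 31.0 and 27.4 against 64.3 and 69.5 (1.17, adjusted p = 0.0310). Tpt1, near the member with folds of 182 in R406 and 82.3 in DMSO, did not pass (−0.13, limma adjusted p = 0.731). The share called among all nearest genes was not taken, so these genes are examples only.

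Peak change and RNA change did not move together across the 195 genes: Spearman's rho between the log2 fold ratio of the peak and the log2 RNA difference was 0.0789, and between R406 fold and mean TPM 0.0618. The points share the 2 peak libraries and 4 RNA libraries, and genes are not independent replicates. The most abundant genes after Lgals1 were Rpl41, Cfl1, Twist1, Ubb and Rnase4. Cfl1, an actin-severing protein, stood at 1608 and 1323 TPM in DMSO and 1517 and 1258 in R406, and Rnase4 at 980 and 1022 against 967 and 992. Rheb, whose peak rose from 96.9 to 228, had RNA of 87.2 and 86.4 TPM in DMSO and 73.9 and 73.9 in R406 (log2 difference −0.23, limma adjusted p = 0.459).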

How the data were processed

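Per the labels' protocols, RNA-seq libraries were made with NEBNext Ultra, a kit without strand marking, and the authors deposited TPM per gene. Near-identical, overlapping or antisense genes can therefore share reads, and their values are uncertain. TPM keeps no depth, so the reads behind each RNA value are unknown. Per the submitters' processing notes, tools included HISAT2 2.1.0 and StringTie 2.0 for RNA and Bowtie2 2.2.5, MACS2 2.1.2, ChIPseeker, HOMER and deepTools for CUT&Tag, on mm10. The control, calling threshold and treatment of duplicates were not given in the sources used here.

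For each CUT&Tag library the authors deposited 1 peak list giving for each peak a score, a fold over background, p- and q-values as −log10, and a summit offset. The deposited score was 10 times the −log10 p-value in 100% of peaks. In 94.5% of DMSO and 94.9% of R406 peaks, the fold was a whole number of coverage steps over one background, within 0.002 of a step. Fold and width are the authors' values, with 1 library per condition.

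Peaks were joined to gene starts from RefSeq tables on GRCm38.p6: starts of 28030 genes came with a strand, and 21967 genes were given either end. The promoter sequences held no gene of chromosome 18, which had 28 members. Genes there were thus given either end, and their promoters are absent from the motif shares. Of the RNA table's 53715 identifiers, 53620 had a symbol. The 13929 genes whose mean reached 1 TPM were fitted in limma 3.58.1 (R 4.3.3) after log2(TPM + 1), using a trended prior variance and no block, two-sided, with Benjamini-Hochberg adjustment over these genes and a threshold of 0.05. Log2 differences are on the log2(TPM + 1) scale, which understates changes of low genes. The fit and the interval code were tested on simulated data. Python 3.11.15 with numpy 2.4.6, pandas 2.3.3 and scipy 1.17.1 was used.

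The members and the 16 gene lists were chosen with earlier results of these data known, so counts over lists are descriptions. Peaks were named by a fixed rule (the widest, the highest fold, the highest and lowest fold ratio, the largest clusters, those beside the width limit), and genes as those at such peaks, up to 10 calls per direction whose higher group averaged 5 TPM or more, up to 4 per list, and the most abundant. The promoters, microRNAs, cluster pairs, Cdca2, Egr3 and the genes with a peak in the body were named after their values were seen. Alternatives were other width limits, overlaps, windows, fits and left-out libraries. The no-antibody library was not analysed here.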

Additional observations from a re-analysis of the deposited data

How the results depend on the processing

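The number of members was 1409 at a width of 1500 bp, 87 at 3000 bp and 181 when the DMSO width entered the rule. The median fold ratio was 1.77 at 3000 bp, 1.49 with the DMSO width and 1.31 as coverage per background. The median width ratio was 1.38 at 1500 bp, 1.86 against the DMSO peak of largest overlap and 0.999 with the DMSO width. The share near a gene start was 37.8% with the start inside the peak, 54.3% at 5 kb, 34.7% for coding genes, 48.3% at 3000 bp and 33.1% from the summit. The share in clusters was 6.26% at gaps of 5 kb, 17.4% at 50 kb and 14.97% at 1500 bp. The ratios with the DMSO width, coverage per background, the summit, and the removal of members with a raised local background were chosen after seeing the data. With that removal the median fold ratio was 1.74 and the median width ratio 1.33, against 1.70 and 1.31 for all members.

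Calls at wide peaks numbered 0 higher and 2 lower of 37 tested at 3000 bp (limma, unadjusted p under 0.05 in 2 and 4), and 5 and 18 of 302 with gene bodies. The same fit called 4.26% and 4.05% of all genes. At 1500 bp the counts were 14 and 21, given without a share, so they cannot be set against these. At a mean of 5 TPM 1 of 161 genes was higher, against 3.22% of all genes. Without a filter 0 were higher and 0 lower among 239 tested (limma, unadjusted p under 0.05 in 18 and 41), as were 0 of all 27879 genes. With quantile normalization 14 of 195 were lower, against 6.10% of all genes. Leaving out each library, where the lone sample is assumed to vary like the other group, gave 0 to 2 higher, 1 to 10 lower and a median difference of −0.25 to 0.055. The same fits called 1.14% to 6.56% of all genes higher and 1.13% to 4.12% lower, both lowest without DMSO replicate 1. That median was 0.020 at 3000 bp. The median TPM was 11.4 without a filter, 24.6 at a mean of 5 TPM and 25.98 at 3000 bp. The cause of these shifts was not tested.

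With the replicate number as a block, 21 genes at wide peaks were higher and 50 lower, against 15.3% and 18.2% of all genes, and all 11 called genes stayed called. Of 47 genes with RNA values in the text, 10 passed only with the block: Btg2 (limma adjusted p = 0.0368), Hic1, Mmp14, Nfatc1, Prrx1, Rpl41, Thbs1, Tnc, Vcan and Vim. Deviations of same-numbered RNA libraries correlated at 0.556, but the labels tie no culture, litter or day to a number, so the unblocked fit was used.

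Rcan1 turned to 0.039 with median centring and 0.055 with quantile normalization, and Rnase4 to 0.013 with median centring. Leaving out libraries took Rcan1 from −0.17 to 0.16, Twist1 from −0.43 to 0.30, Jun from −0.46 to 0.15, Dusp1 from −0.56 to 0.052 and Ubb from −0.45 to 0.15. It took Cfl1 from −0.22 to 0.063, Nfatc4 from −0.23 to 0.33, Syk from −0.054 to 0.39 and Trib1 from −0.12 to 0.16. None of these genes was called.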

Other observations

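Nfkbia, Socs1, Spry2, Nr1d1 and Atf4, which are in none of the lists above, also had their start at a wide peak. They were picked after their values were seen. Nfkbia, the inhibitor of NF-κB, had folds of 54.4 in R406 and 21.1 in DMSO and RNA of 83.1 and 69.5 TPM in DMSO against 96.2 and 89.2 in R406. Socs1, a brake on cytokine receptors, had folds of 22.8 and 10.2 and RNA of 27.4 and 19.6 against 28.3 and 18.4 TPM. Spry2, a brake on receptor tyrosine kinases, had folds of 13.9 and 10.2 and RNA of 18.1 and 13.4 against 12.97 and 10.9 TPM. Nr1d1, a repressor of the circadian clock, had folds of 29.7 and 13.1 and RNA of 21.1 and 14.3 against 22.4 and 12.1 TPM. Atf4, the factor of the amino acid stress response, had folds of 89.8 and 55.4 and RNA of 112 and 93.9 against 170 and 109 TPM. None of the 5 passed the limma test, with adjusted p-values of 0.390 to 0.974.

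By chromosome, chromosome 11 held the most members, 44 (4.24% of its shared peaks), and X the fewest, 3 (1.40%).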
